A study of Mus musculus with 2 samples.

Results

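Alox15, Tspo2, Ypel4, Fn3k, Tmcc2 and Acp5 are genes linked to the late maturation of red cells, and their RNA was measured here in mouse CFU-E. CFU-E, or colony-forming unit erythroid, is a committed red cell progenitor named for the small colonies that it forms in culture. The genes were taken by symbol, and all 6 were found among 43346 Ensembl gene rows, with 23 annotated transcripts. The study had 1 group of 2 biological replicates, replicate 1 and replicate 2. Both were libraries of total RNA depleted of ribosomal RNA, each made with the ScriptSeq kit from 100 ng of RNA of untreated primary cells. The labels give male C57BL/6J mice of 5 to 6 weeks with no transgene. They list separate biosamples under a shared donor identifier, and do not say whether animals were pooled, so the spread between replicates may be partly technical. No contrast between conditions existed, and each result is a level, a share or a difference between the 2 libraries.

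As a progenitor becomes a red cell it stops dividing, fills with haemoglobin, expels its nucleus and, as a reticulocyte, clears its mitochondria and ribosomes. Alox15 encodes a lipoxygenase that oxygenates membrane fatty acids and was first described in rabbit reticulocytes, where it attacks organelle membranes. Tspo2 encodes an erythroid member of the translocator protein family, which binds cholesterol. Ypel4 encodes a small zinc-binding protein of the Yippee family, whose loss in mice alters red cell membranes. Fn3k encodes a kinase that phosphorylates sugars bound to proteins by glycation, which leads to their release. Tmcc2 encodes a coiled-coil membrane protein of the endoplasmic reticulum. Acp5 encodes tartrate-resistant acid phosphatase, best known from osteoclasts and macrophages.

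The cells carried an erythroid profile, with RNA of other blood cells beside it. Library totals were 62576357 expected counts in replicate 1 and 36889517 in replicate 2. Of 10 erythroid markers, 9 reached 10 TPM in each library, as did 4.79% of nuclear protein-coding genes. The exception was Kit, a growth factor receptor of progenitors including CFU-E, at 0.42 TPM in replicate 1 and 0.51 TPM in replicate 2. Hbb-bt was the highest of the 10, at 3305 TPM in replicate 1 and 1734 TPM in replicate 2. Next came Hba-a1 at 1638 and 758, Slc4a1 at 693 and 423, and Tfrc at 284 and 213. All 6 neutrophil markers also passed 10 TPM in both libraries, beside the same 4.79%, and their summed level was 1123 TPM in replicate 1 and 573 TPM in replicate 2. TPM is expected counts divided by transcript length, scaled so that each library has the same sum. Over the 9880 nuclear protein-coding genes that reached 10 counts in each library, TPM was higher in replicate 1 by a median of 1.57-fold. Every SD in deposited TPM includes that shift. Rescaled TPM, in which nuclear protein-coding genes alone are given that sum, removes most of it and leaves a median log2 difference of -0.08. Nuclear protein-coding genes held 12.4% of all TPM in replicate 1 and 7.49% in replicate 2, so rescaling multiplies deposited TPM by 8.05 and 13.4. Deposited TPM of these genes, and thresholds set on it, are to be read on that reduced scale. In bulk RNA, fewer cells expressing a gene and less RNA per cell cannot be told apart.

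Of the 6 genes, Tspo2, Ypel4, Fn3k and Tmcc2 stood at 10 TPM or more in both libraries, as did 4.79% of 21461 nuclear protein-coding genes. Tspo2 had 71.1 TPM in replicate 1 and 24.6 TPM in replicate 2, which placed it at ranks 189 and 421 among those genes. Ypel4 had 43.6 and 29.97 TPM, at ranks 353 and 332. Both values lay in the top 2% of protein-coding genes in each library, since at least 98.0% of these genes were lower. Fn3k had 41.5 and 24.1 TPM, at ranks 376 and 430. Tmcc2 had 32.6 and 23.3 TPM, at ranks 515 and 443. Acp5 was lower, at 8.42 and 4.70 TPM and ranks 1834 and 2014, and it passed 1 TPM in both libraries with 23.9% of protein-coding genes. Alox15 was the lowest, with 273 and 96 expected counts or 0.76 and 0.29 TPM, at ranks 6963 and 7955.

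By mean the order was Tspo2 at 47.8 ± 32.9 TPM (SD, n = 2 for each gene), Ypel4 at 36.8 ± 9.66, Fn3k at 32.8 ± 12.3, Tmcc2 at 27.95 ± 6.55, Acp5 at 6.56 ± 2.63 and Alox15 at 0.525 ± 0.332. The first 4 did not differ from their neighbours in that order beyond their spread, and Tspo2 and Ypel4 changed places between libraries. Acp5 lay below these 4 in each library, and Alox15 lay below Acp5. On rescaled TPM the means were 450 ± 172 for Tspo2, 376 ± 34.7 for Ypel4, 328 ± 8.48 for Fn3k, 287 ± 34.8 for Tmcc2, 65.3 ± 3.55 for Acp5 and 4.996 ± 1.59 for Alox15. The order was unchanged on that scale, and the spread relative to the mean was smaller for all 6 genes. Acp5 then passed a threshold of 10 in both libraries and Alox15 did not.

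**Figure D1:**
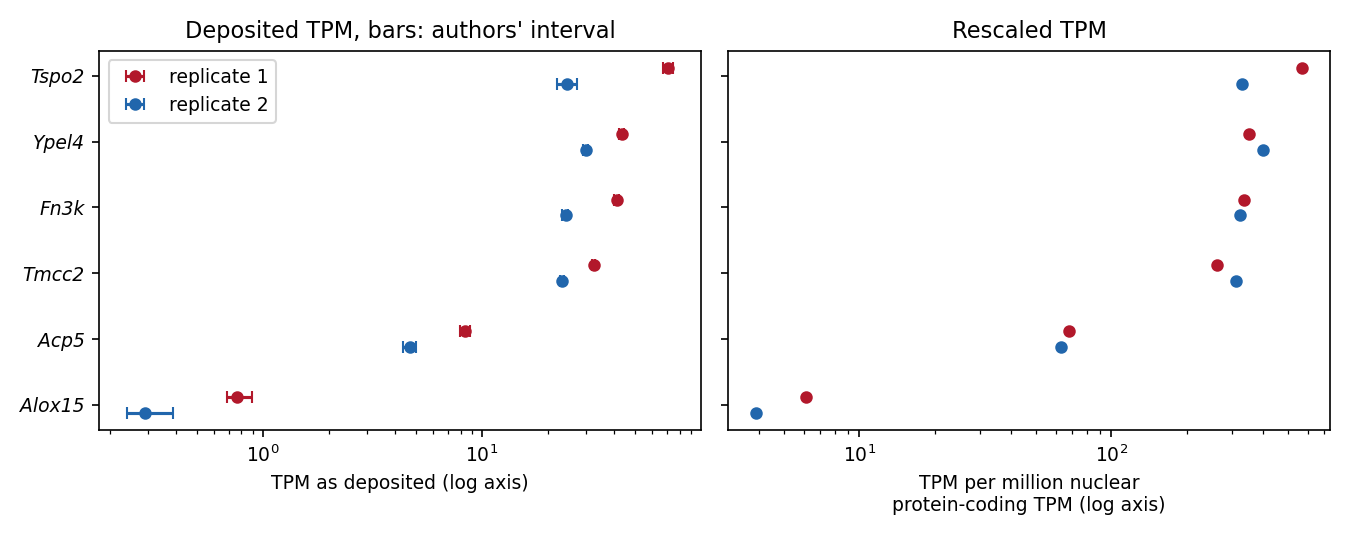
Level of each gene in replicate 1 (red) and replicate 2 (blue), as deposited TPM with the authors' credibility interval (left) and as TPM rescaled to nuclear protein-coding genes (right), both on log axes. Tspo2, Ypel4, Fn3k and Tmcc2 lie together at 23.3 to 71.1 deposited TPM, above Acp5 at 4.70 to 8.42 and Alox15 at 0.29 to 0.76.

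Alox15 (chromosome 11, 70344152 to 70352031, minus strand) was read from its full-length transcript. Alox15-201, with 14 exons and 1989 coding bases, took all of the gene's TPM in both libraries. The authors' credibility interval for the gene was 0.685 to 0.898 TPM in replicate 1 and 0.239 to 0.390 TPM in replicate 2, so the intervals did not overlap. Among the lipoxygenase genes Alox15 was not the highest. Alox5, which starts leukotriene synthesis in myeloid cells, had 1.39 TPM in replicate 1 and 0.70 in replicate 2. Alox12, the platelet lipoxygenase, had 0 and 36 counts and Aloxe3 had 0 and 10, while Alox8, Alox12b and Alox12e had 0 counts in both libraries, where a count of 0 allows up to 3 counts. The log2 ratio of Alox15 to these 6 genes summed was -1.16 ± 0.52 (SD, n = 2), with 0.1 TPM added to each side. With protein-coding transcripts alone it was 0.50 in replicate 1 and -1.07 in replicate 2, so the order between Alox15 and its family then differed between the libraries.

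Other blood cells express Alox15 as well. Among 8 eosinophil markers 5 reached 1 TPM in both libraries, as did 23.9% of nuclear protein-coding genes. The 8 markers summed to 42.2 TPM in replicate 1 and 24.3 TPM in replicate 2. Prg2, an eosinophil granule protein gene, had 16.4 and 10.7 TPM and Ear2, a granule ribonuclease gene, had 13.4 and 5.61. Ear1 had 4.18 and 2.90 TPM and Ear6 3.78 and 2.88, and values of these ribonuclease genes are uncertain because close copies of them share reads. Epx, the eosinophil peroxidase gene, had 849 and 292 counts, or 2.11 and 0.80 TPM. Siglecf, a defining surface receptor of eosinophils, had 0.40 and 0.14 TPM, while Ccr3, a chemokine receptor of these cells, had 1.95 and 1.24. Il5ra, the interleukin receptor that sustains them, had 0 counts in both. Macrophage markers, described with Acp5 below, summed to 43.4 TPM in replicate 1 and 30.01 TPM in replicate 2. The part of eosinophils, macrophages or other cells in the Alox15 level was not tested.

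Tspo2 (chromosome 17, 48447907 to 48451522, minus strand) owed most of its difference in TPM to 1 short transcript. Tspo2-204, a non-coding spliced transcript of 345 bases, had 40.4 TPM in replicate 1 and 4.15 TPM in replicate 2. That was 56.9% and 16.9% of the gene's TPM, but 9.62% and 2.17% of its expected counts. Its effective length, the number of positions at which a fragment can start, was 128 bases in replicate 1 and 165 in replicate 2, and 847 and 104 expected counts gave these TPM values. Tspo2-201, the protein-coding transcript with 5 exons and 486 coding bases, had 18.7 and 13.2 TPM. Tspo2-202, annotated as a retained intron, had 11.96 and 6.96 TPM and held 64.9% and 65.2% of the counts. The gene differed 2.89-fold in TPM between the libraries, and its protein-coding transcripts summed differed 1.39-fold.

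The letters at the exon edge show how these Tspo2 transcripts part. Each sequence below is GENCODE M21 on mm10, minus strand, 5′ to 3′. In the first pair, lower case marks the shared end of a coding exon (chr17:48449883-48449902) and capitals mark what follows it. In Tspo2-201 that is the next coding exon (chr17:48449132-48449161), and in Tspo2-202 the unspliced intron (chr17:48449853-48449882), which opens with GT.
Tspo2-201: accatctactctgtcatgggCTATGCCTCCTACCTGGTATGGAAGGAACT
Tspo2-202: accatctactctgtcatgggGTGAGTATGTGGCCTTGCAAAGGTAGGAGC
In Tspo2-204, capitals mark 48 bases (chr17:48450824-48450871) that Tspo2-201 removes as intron, and lower case the 42 bases of its last exon (chr17:48449936-48449977), which lie inside a coding exon of Tspo2-201.
Tspo2-204: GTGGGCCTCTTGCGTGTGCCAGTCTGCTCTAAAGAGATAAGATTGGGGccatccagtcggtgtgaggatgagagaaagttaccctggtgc

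Tspo2 exceeded its paralog in both libraries. Tspo, which encodes the widespread translocator protein of the outer mitochondrial membrane, had 12.5 TPM in replicate 1 and 7.96 TPM in replicate 2. The log2 ratio of Tspo2 to Tspo was 2.50 and 1.62, a mean of 2.06 ± 0.62 (SD, n = 2). With protein-coding transcripts alone, a comparison added after the values were seen, the ratio was 0.58 and 0.75. Tspo2 was thus higher on both scales, by 5.65-fold and 3.06-fold for whole genes and by 1.49-fold and 1.68-fold for protein-coding transcripts. Of its neighbours, Apobec2 had 0 counts in both libraries and Unc5cl had 225 counts in replicate 1 and 200 in replicate 2.

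Ypel4 (chromosome 2, 84734058 to 84738655, plus strand) was carried mostly by transcripts without an annotated open reading frame. Ypel4-204, annotated as a retained intron, had 19.6 TPM in replicate 1 and 12.9 TPM in replicate 2, or 44.8% and 43.0% of the gene's TPM. Ypel4-203, a non-coding spliced transcript of 797 bases at the start of the gene, had 15.4 and 13.7 TPM, or 35.4% and 45.6%. Ypel4-201, which holds the 381 coding bases, had 8.64 and 3.44 TPM, or 19.8% and 11.5%. These 3 transcripts accounted for the gene, and Ypel4-202, annotated for nonsense-mediated decay, had 0 counts in both libraries. In the sequences, lower case marks the shared end of a coding exon on the plus strand (chr2:84737088-84737107). Capitals mark the next coding exon in Ypel4-201 (chr2:84737420-84737449) and the unspliced intron in Ypel4-204 (chr2:84737108-84737137), which opens with GT.
Ypel4-201: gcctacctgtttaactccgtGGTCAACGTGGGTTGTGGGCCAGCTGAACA
Ypel4-204: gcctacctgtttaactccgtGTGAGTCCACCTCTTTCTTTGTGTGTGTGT

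The place of Ypel4 in its family depended on which transcripts were counted. As a whole gene it was the highest Yippee gene in both libraries. Ypel3 had 9.19 TPM in replicate 1 and 4.54 TPM in replicate 2, Ypel5 had 8.12 and 7.58, Ypel2 had 0.20 and 0.01, and Ypel1 had 0.01 in each. The log2 ratio of Ypel4 to these 4 genes summed was 1.30 ± 0.01 (SD, n = 2). With protein-coding transcripts alone it was -0.95 in replicate 1 and -1.55 in replicate 2, with Ypel4 at 8.64 and 3.44 TPM, Ypel3 at 8.44 and 2.67 and Ypel5 at 8.12 and 7.58. Ypel4 was then the highest of the family in replicate 1 and lower than Ypel5 in replicate 2.

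Fn3k (chromosome 11, 121434913 to 121450491, plus strand) was expressed as a spliced form and as a form that reads on into an intron, at similar levels. Fn3k-201, with 6 exons and 927 coding bases, had 22.5 TPM in replicate 1 and 14.3 TPM in replicate 2, or 54.3% and 59.4% of the gene's TPM. Fn3k-203, which ends inside the intron after its 4th exon and has 624 coding bases, had 17.9 and 9.81 TPM, or 43.0% and 40.6%. Both are annotated as protein coding. Fn3k-203 is 3841 bases long against 1047 for Fn3k-201, and by counts it held 76.0% and 74.3% of the gene. The letters on the plus strand show the exon edge. Lower case marks the shared exon end (chr11:121440134-121440153). Capitals mark the next exon in Fn3k-201 (chr11:121448882-121448911) and the coding bases read on in Fn3k-203 (chr11:121440154-121440183).
Fn3k-201: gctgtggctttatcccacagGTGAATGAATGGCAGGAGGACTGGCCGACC
Fn3k-203: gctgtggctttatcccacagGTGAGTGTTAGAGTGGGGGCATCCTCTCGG
The next gene on the same strand, 3625 bases upstream, is Fn3krp, the paralog whose kinase acts on other protein-bound sugars. Fn3krp had 21.4 and 14.7 TPM, and Fn3k exceeded it by a log2 ratio of 0.83 ± 0.17 (SD, n = 2), or 1.93-fold and 1.63-fold.

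Tmcc2 (chromosome 1, 132356315 to 132391281, minus strand) was read mainly from a start inside the gene. Tmcc2-206, which begins at an internal first exon and has 1413 coding bases, had 22.9 TPM in replicate 1 and 13.5 TPM in replicate 2, or 70.1% and 57.9% of the gene's TPM. Tmcc2-201 and Tmcc2-203, which begin at the far upstream exons and have 2118 and 1884 coding bases, were low. Tmcc2-201 had 0.59 and 0.84 TPM and Tmcc2-203 had 2.11 and 1.95. Tmcc2-205, a retained-intron transcript that begins at the internal exon as well, had 7.02 and 6.82 TPM, or 21.6% and 29.3%. The coding start of Tmcc2-206 is shown with the exon that stands in its place in Tmcc2-201. Capitals mark the 27 coding bases before the junction, on the minus strand, at chr1:132367698-132367724 in Tmcc2-206 and chr1:132380657-132380683 in Tmcc2-201. Lower case marks the shared exon (chr1:132361196-132361215).
Tmcc2-206: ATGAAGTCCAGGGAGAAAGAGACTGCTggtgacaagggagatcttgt
Tmcc2-201: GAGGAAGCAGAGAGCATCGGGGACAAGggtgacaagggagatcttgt
The retained intron of Tmcc2-205 follows the same exon end that Tmcc2-206 splices. Lower case marks that end (chr1:132360275-132360294), and capitals the next exon in Tmcc2-206 (chr1:132359009-132359038) or the intron in Tmcc2-205 (chr1:132360245-132360274).
Tmcc2-206: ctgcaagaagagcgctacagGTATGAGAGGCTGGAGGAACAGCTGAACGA
Tmcc2-205: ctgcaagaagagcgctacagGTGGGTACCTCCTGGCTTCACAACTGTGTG

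Since the data separate the internal from the upstream starts of Tmcc2, bases before the RefSeq starts nearest to these are shown (GRCm38.p6, minus strand). The internal RefSeq start (chr1:132367948) lies upstream of the start of Tmcc2-206 (132367887). The farthest (chr1:132391386) lies upstream of that of Tmcc2-201 (132391281), so the windows do not adjoin these transcripts. Capitals mark 2 motifs searched on both strands. The first is the core bound by GATA factors, searched as the words AGATAA and AGATAG as well as TGATAA and TGATAG. The other is CCNCNCCC, a core bound by Krüppel-like factors. The internal window (chr1:132367949-132368198) held 2 GATA matches and 1 CCNCNCCC match. The farthest window (chr1:132391387-132391636) held 0 GATA matches and 4 CCNCNCCC matches. The window before the start of Tmcc2-203 (chr1:132390319-132390568), the more abundant of the upstream forms, held 0 matches of either motif.
Tmcc2 internal: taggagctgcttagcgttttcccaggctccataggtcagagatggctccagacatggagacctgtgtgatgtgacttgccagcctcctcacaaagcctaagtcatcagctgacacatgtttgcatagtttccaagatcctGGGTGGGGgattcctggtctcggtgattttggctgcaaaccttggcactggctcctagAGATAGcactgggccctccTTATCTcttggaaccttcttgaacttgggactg
Tmcc2 farthest: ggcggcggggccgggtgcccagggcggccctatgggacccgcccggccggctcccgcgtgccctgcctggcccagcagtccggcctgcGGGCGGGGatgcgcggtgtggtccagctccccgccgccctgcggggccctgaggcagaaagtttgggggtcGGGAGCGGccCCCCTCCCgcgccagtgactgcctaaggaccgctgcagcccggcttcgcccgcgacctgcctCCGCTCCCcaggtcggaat
Of 32851 RefSeq windows of 250 bases, 26.5% held at least 1 GATA match, 6.4% held at least 2, and 45.9% held a CCNCNCCC match. No base was shared between matches of the 2 motifs. The windows found for Tspo2 (229 bases) and Ypel4 (104 bases) held 0 GATA matches. They held 2 and 3 CCNCNCCC matches, and 42.5% and 17.8% of windows of those lengths held at least 1. In both windows some of these matches overlap one another. The share of windows with as many CCNCNCCC matches was not computed for any gene. A match describes the letters and does not show binding.

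Tmcc2 was higher than its paralogs in both libraries. Tmcc1 had 0.81 TPM in replicate 1 and 0.53 TPM in replicate 2, and Tmcc3 had 0.06 and 0.08. The log2 ratio of Tmcc2 to both summed was 5.06 ± 0.02 (SD, n = 2), and it was 4.80 with protein-coding transcripts alone. An antisense gene that overlaps Tmcc2, Gm15849, had 0 counts in both libraries.

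Acp5 (chromosome 9, 22126727 to 22135711, minus strand) used different first exons in the libraries by the authors' estimate. Its transcripts share all 981 coding bases and differ before them. Acp5-203, from the upstream first exon, had 3.49 TPM in replicate 1 and 4.70 TPM in replicate 2. Acp5-202, from a first exon closer to the coding bases, had 4.93 TPM in replicate 1 and 0 in replicate 2. The authors' credibility intervals for Acp5-202 were 4.08 to 5.63 TPM and 6.33e-06 to 0.479 TPM and did not overlap. Acp5-203 thus held 41.5% and 100% of the gene's TPM. The estimate rests on few bases, since the first exons of Acp5-202 and Acp5-203 are 76 and 99 bases long in GENCODE M21, and Acp5-203 itself is 1407 bases long in the deposited table and 1376 in M21. A transcript on the other strand that spans Acp5, 6530413G14Rik, was not analysed here.

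The windows before these first exons are shown from RefSeq, minus strand, with the same motifs in capitals. The upstream RefSeq start (chr9:22135746) lies upstream of the first exon of Acp5-203, which begins at 22135711. The upstream window (chr9:22135747-22135996) held 4 GATA matches, as many as in 0.21% of windows, and 2 CCNCNCCC matches. The nearer window (chr9:22130609-22130848) held 0 GATA matches and 1 CCNCNCCC match, against 25.9% and 44.4% of windows of 240 bases. Another RefSeq window of Acp5, between these (chr9:22131866-22132115), held 0 GATA matches and 1 CCNCNCCC match and is not printed.
Acp5 upstream: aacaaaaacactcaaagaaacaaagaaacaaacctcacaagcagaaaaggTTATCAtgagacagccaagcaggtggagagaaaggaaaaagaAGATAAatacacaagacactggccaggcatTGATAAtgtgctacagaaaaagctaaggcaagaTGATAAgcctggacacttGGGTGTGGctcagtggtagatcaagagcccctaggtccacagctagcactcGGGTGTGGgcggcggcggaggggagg
Acp5 nearer: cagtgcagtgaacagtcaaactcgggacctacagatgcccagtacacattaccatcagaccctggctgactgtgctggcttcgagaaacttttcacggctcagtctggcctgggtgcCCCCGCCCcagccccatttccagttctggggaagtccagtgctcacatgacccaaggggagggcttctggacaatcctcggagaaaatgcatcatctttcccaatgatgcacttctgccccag

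Acp5 is also a marker of osteoclasts and of some macrophages. Of 10 osteoclast markers Ctsk, Calcr, Oscar, Dcstamp and Ocstamp had 0 counts in both libraries, Ctsk being the collagen-degrading protease that defines these cells. Their list summed to 3.53 TPM in replicate 1 and 2.46 TPM in replicate 2, of which Mmp9, which neutrophils also express, made up 2.89 and 1.98. Macrophage markers were present, of which 8 of 11 reached 1 TPM in each library, as did 23.9% of nuclear protein-coding genes. The 11 markers summed to 43.4 and 30.01 TPM. Vcam1 had 10.1 and 7.09 TPM, C1qb 6.16 and 3.89, Cd68 6.38 and 3.07, and C1qa 4.76 and 4.60. Adgre1 was lower at 1.72 and 1.99. Those that did not reach 1 TPM were Csf1r at 0.91 and 0.61, Timd4 at 0.52 and 0.44, and Marco at 0 and 0.09. Acp5, at 8.42 and 4.70 TPM, lay in the range of the 4 highest of these markers. The part of macrophages in its level was not tested.

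Other genes named for acid phosphatase activity were set beside Acp5. Acp1, a cytoplasmic phosphatase unrelated in sequence, had 23.3 TPM in replicate 1 and 13.1 TPM in replicate 2. Acp6 had 1.32 and 0.55 TPM, Acp2 0.24 and 0.43, and Acp3 0.29 and 0.15. Acp4 and Acp7 had 0 counts in both libraries. Of these 6 genes Acp7 alone is, like Acp5, a purple acid phosphatase, so the set is not a family of Acp5 with or without Acp1. The log2 ratio of Acp5 to these 6 genes summed was -1.57 ± 0.01 (SD, n = 2), and Acp1 alone accounted for most of the sum. Without Acp1, a choice made after the values were seen, the other 5 summed to 1.85 TPM in replicate 1 and 1.13 TPM in replicate 2, and the log2 ratio was 2.05 ± 0.12 (SD, n = 2). Acp5 was thus higher than every gene set beside it other than Acp1.

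**Figure D2:**
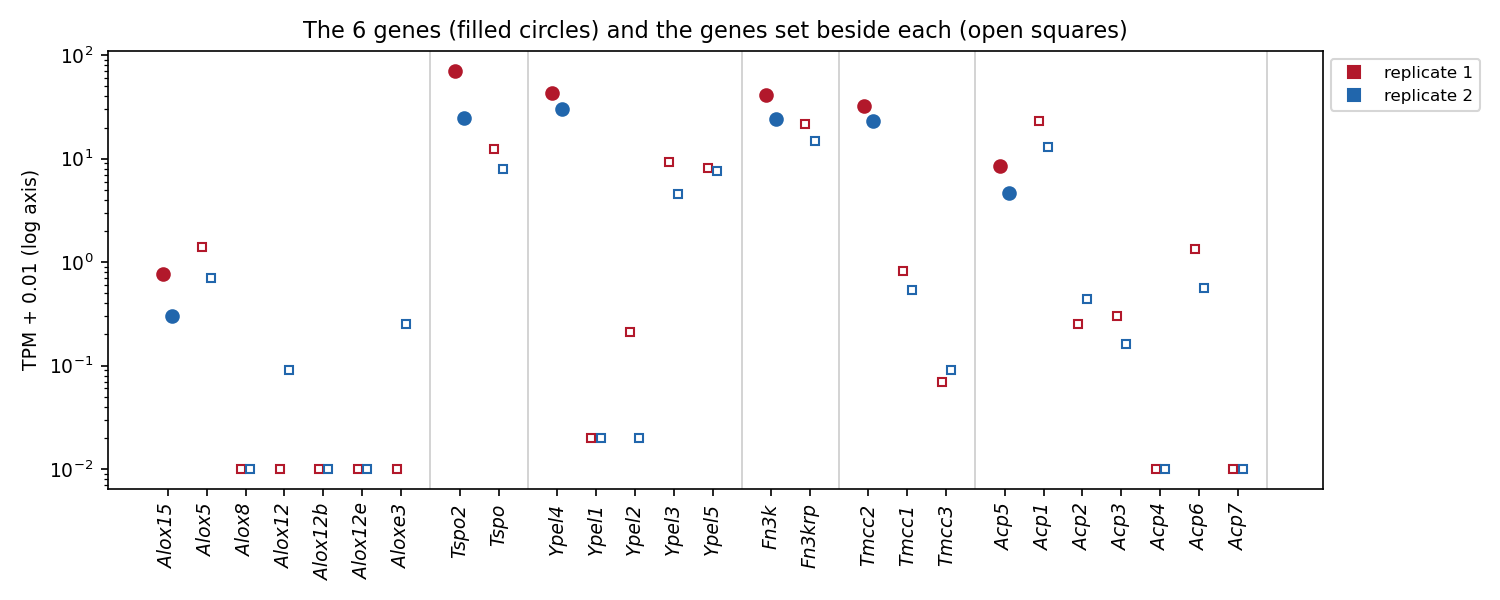
TPM plus 0.01 (log axis) of the 6 genes (filled circles) and of the genes set beside each (open squares), in replicate 1 (red) and replicate 2 (blue). Tspo2, Ypel4, Fn3k and Tmcc2 lie above every gene set beside them in both libraries. Alox15 lies below Alox5, and Acp5 lies below Acp1 and above the others, of which only Acp7 is also a purple acid phosphatase.

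Across the 6 genes, Tspo2, Ypel4, Fn3k and Tmcc2 exceeded the summed genes set beside them in both libraries, and so did Acp5 once Acp1 was left out. With protein-coding transcripts alone Ypel4 did not. Levels of protein-coding transcripts also changed the order of the genes. Fn3k came first with 41.5 TPM in replicate 1 and 24.1 TPM in replicate 2, followed by Tmcc2 with 25.6 and 16.3 and Tspo2 with 18.7 and 13.5. The first place of Fn3k rests on Fn3k-203, which reads on into an intron but is annotated as protein coding. Fn3k-201 alone, with 22.5 and 14.3 TPM, lay below the protein-coding sum of Tmcc2 in both libraries. Ypel4 with 8.64 and 3.44 TPM stood near Acp5 with 8.42 and 4.70. On this scale Fn3k, Tmcc2 and Tspo2 passed 10 TPM in both libraries, as did 3.47% of nuclear protein-coding genes.

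**Figure D3:**
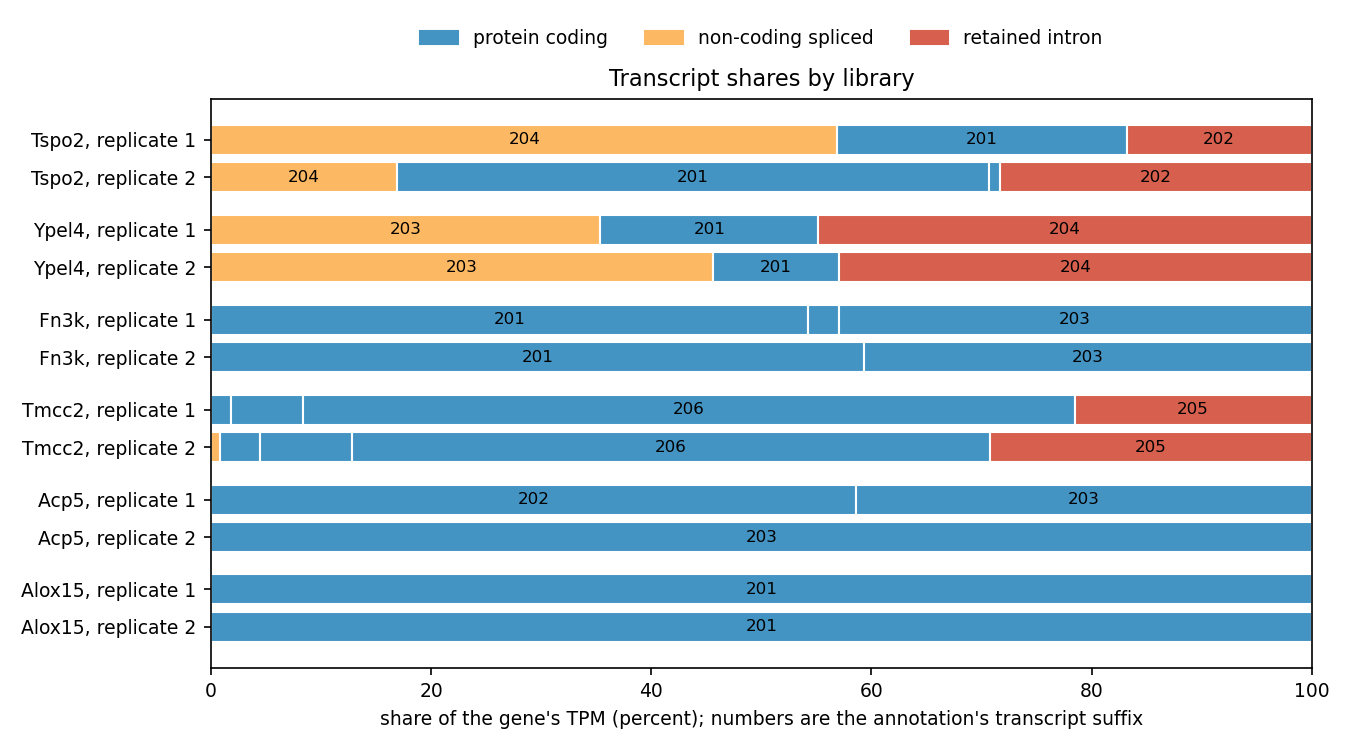
Share of each transcript in its gene's TPM (percent), by gene and library, coloured by annotated type, with the transcript suffix printed in segments of at least 10%. Tspo2-204 spans 56.9% in replicate 1 and 16.9% in replicate 2, and Acp5-202 appears in replicate 1 alone.

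Retained-intron transcripts are annotated for Tspo2, Ypel4 and Tmcc2. They held at least 20% of TPM in both libraries for Ypel4 and Tmcc2 but not for Tspo2, and did so for 44.8% of 1362 protein-coding genes that have such a transcript and at least 1000 counts in both libraries. The mean share was 22.6% for Tspo2, 43.9% for Ypel4 and 25.4% for Tmcc2, against a median of 22.7% over these genes. By counts, which favour long transcripts, the mean shares were 65.1%, 60.0% and 32.7%, against medians of 10.1% in replicate 1 and 10.9% in replicate 2. All 3 genes held at least 20% of counts in both libraries, as did 24.5% of the 1362. By TPM, 49.5% of the 1362 genes lay below Tspo2, 54.1% below Tmcc2 and 78.8% below Ypel4. By counts these were 96.9% for Tspo2, 83.7% for Tmcc2 and 96.1% for Ypel4, so the placing depended on the measure. Total RNA also holds unspliced precursors, and the part of these in retained-intron counts, or in those of Fn3k-203, was not tested.

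The leading transcript by TPM was the same in both libraries for Alox15, Fn3k and Tmcc2. It differed for Tspo2, Ypel4 and Acp5, and for 30.8% of 2188 protein-coding genes with several transcripts and at least 1000 counts in both libraries, a minimum that Alox15 and Acp5 do not meet. By counts it was the same for 5 genes and differed for Acp5 alone, and for 19.3% of the 2188.

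Between the libraries, none of the 6 genes differed by 2-fold once counts were scaled by TMM, which assumes that most genes did not differ. Among 9480 protein-coding genes averaging 50 counts or more, 18.7% did. The log2 ratio of replicate 1 to replicate 2 was 0.79 for Alox15, 0.22 for Fn3k, 0.17 for Tspo2, 0.16 for Acp5, 0.01 for Ypel4 and -0.18 for Tmcc2. For Alox15 the counting interval at 95% (Wilson) was 0.46 to 1.13, and the middle 90% of 2240 genes with mean counts of 100 to 300 ran from -1.79 to 2.00. For Tspo2, Ypel4, Fn3k and Tmcc2 the comparable range over 1351 genes with mean counts of 3000 to 20000 was -0.45 to 0.44. All 4 ratios lay inside that range, and Acp5, with a mean count between 1000 and 3000, lay inside its own range of -0.64 to 0.68 over 1893 genes. With 1 library on each side these differences have no replicate check. The intervals hold counting error alone, because they were computed from the 2 counts of a gene without variation between libraries. They treat each read as a separate molecule, so PCR copies, if counted, would make them too narrow.

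On deposited TPM the picture was another. All 6 genes were higher in replicate 1, Tspo2 by a log2 ratio of 1.53 and Alox15 by 1.39, both past 2-fold, as were 26.2% of the 9480 genes in that direction. Rescaled TPM gave 0.80 for Tspo2 and 0.66 for Alox15, and for Ypel4 and Tmcc2 it gave -0.19 and -0.25. The direction for Ypel4 and Tmcc2 therefore flipped with the scale, and the direction for Tspo2, Alox15, Fn3k and Acp5 did not.

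**Figure D4:**
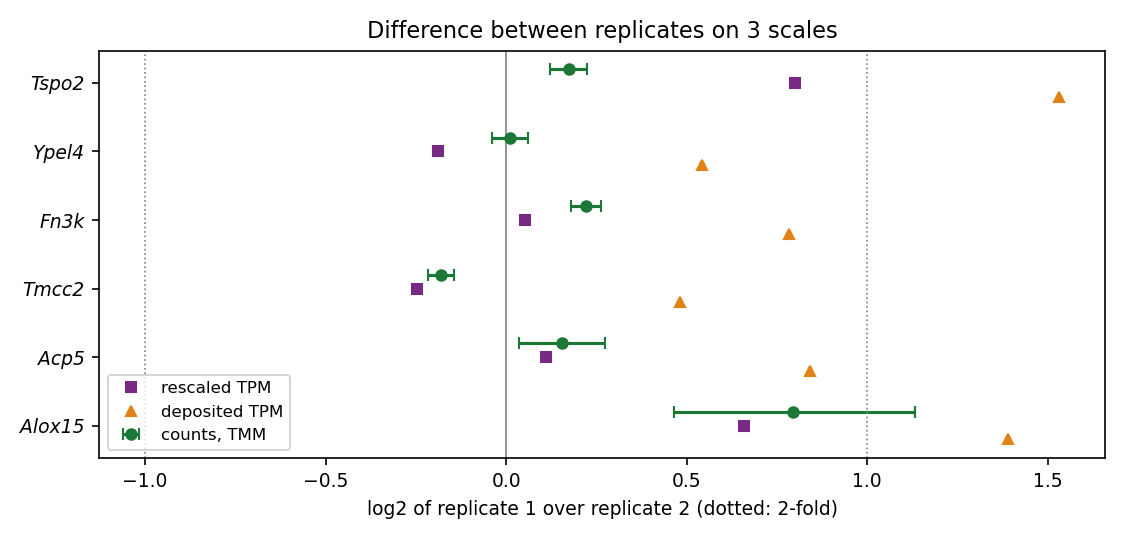
Log2 of replicate 1 over replicate 2 for each gene from counts scaled by TMM (green, bars: 95% counting interval), rescaled TPM (purple) and deposited TPM (orange), with dotted lines at 2-fold. Green points lie between -0.18 and 0.79, and orange points between 0.48 and 1.53.

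The 6 genes were placed in a list of 36 genes linked to late maturation. The list was chosen by known roles but with earlier results of these data known, so its levels are description and not an independent comparison. Of the 36 genes, 28 reached 10 TPM in each library and 34 reached 1 TPM, beside 4.79% and 23.9% of 21461 nuclear protein-coding genes. The median of mean TPM was 30.3, against 0.055 over those 21461 genes. Over the 9880 genes that reached 10 counts in each library the median was 1.59. By mean TPM, Tspo2 came at place 13 of 36, Ypel4 at 15, Fn3k at 17, Tmcc2 at 20, Acp5 at 30 and Alox15 at 35. In the single libraries Tspo2 came at place 11 in replicate 1 and 16 in replicate 2, the widest shift of the 6. The other 5 moved by at most 2 places between the libraries. The list was led by Prdx2, which removes peroxide in red cells, at 300 ± 102 TPM (SD, n = 2). Next came Car2, a carbonic anhydrase, at 243 ± 55.5, Ctse, an aspartic protease of erythroid cells, at 220.2 ± 74.8, and Hemgn, an erythroid nuclear factor, at 166 ± 56.1. Alox15 was followed only by Rundc3a, which had 0 counts in both libraries. Bnip3l, a receptor for the removal of mitochondria, had 27.4 ± 11.0 TPM and came after Tmcc2 by mean, but at place 19 against 21 for Tmcc2 in replicate 1.

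**Figure D5:**
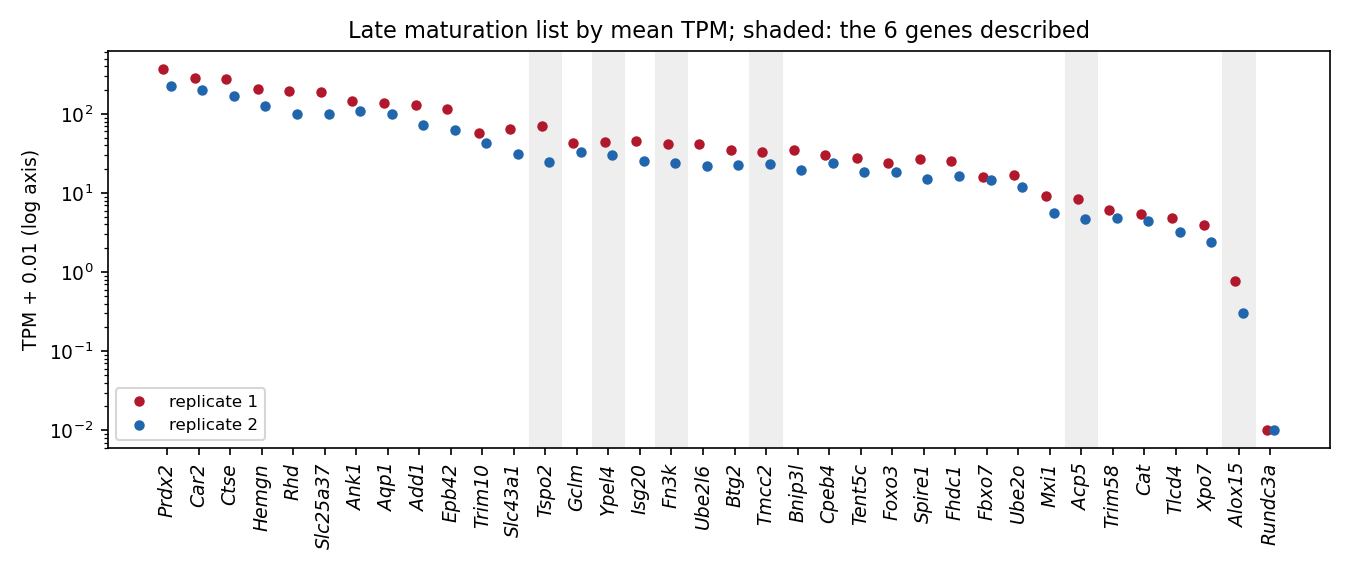
TPM plus 0.01 (log axis) of 36 late maturation genes in replicate 1 (red) and replicate 2 (blue), ordered by mean TPM, with the 6 genes described here shaded. Tspo2, Ypel4, Fn3k and Tmcc2 stand in the middle of the list, between places 13 and 20 by mean, and Alox15 at place 35.

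For each gene the pair of protein-coding genes nearest in log2(TPM + 0.1) over the 2 libraries was found. With 2 libraries this measures likeness of level alone. Alox15 was nearest to Tefm (distance 0.02) and A430033K04Rik (0.03), and Tspo2 to Hist2h4 (0.03) and Hnrnpab (0.08). Ypel4 was nearest to Optn (0.02) and Cbx3 (0.03), and Fn3k to Itm2b (0.01) and Kcnn4 (0.03). Tmcc2 was nearest to Nucks1 (0.02) and Tut7 (0.07), and Acp5 to Atad2b (0.01) and Serp1 (0.02).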

How the data were processed

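Per the file headers, the authors deposited for each library a gene table and a transcript table of expected counts, estimates that divide a read between the features it matches, and of TPM and posterior mean TPM. The deposited bounds of a credibility interval for TPM, read here as a signal per feature, and the deposited percent of a gene's TPM per transcript were used as they stand. The notes deposited with the files name mm10 and GENCODE M4, and list signal tracks split by strand. For the aligner, the quantifier and the strand setting of the counting, the sources used here give no name.

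Names, types and coordinates came from GENCODE M21, matched on identifiers without version: 42462 of 43346 gene rows matched. Rows that name no Ensembl gene held 0 and 25 counts and were left out. Expected counts were rounded for TMM (edgeR 4.0.16, genes reaching 10 counts in each library, prior count 0.5) and DESeq2 1.42.0 size factors, in R 4.3.3. Other steps used Python 3.11.15, pandas 2.3.3 and scipy 1.17.1. The scaling was run on simulated counts in which few genes changed, as many up as down. That setting meets the assumption of TMM, so it does not test the scaling on libraries that break it. Sequences are GENCODE M21 transcripts and RefSeq windows, cut where an annotated exon of the gene begins. The table held windows for Tspo2, Ypel4, Tmcc2 and Acp5.

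Alternatives covered thresholds, posterior mean TPM, depth-scaled counts, rescaled TPM, pseudocounts of 0.1 and 1, prior counts, count filters and leaving out each replicate. No test between groups was possible with 1 group. Genes and lists were chosen with earlier results of these data known. Named are the 6 genes, the genes set beside each, the genes nearest in level and some neighbours. Of the late, erythroid, eosinophil and macrophage lists the 4 highest members are named, with defining markers at 0. Of the osteoclast list the highest, Mmp9, and the markers at 0 are named, and no neutrophil marker is named. Bnip3l, Siglecf, Ccr3, Epx, Kit, Adgre1, Csf1r, Timd4 and Marco fall outside this rule and were chosen after their values were seen.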

Additional observations from a re-analysis of the deposited data

How the results depend on the processing

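Of 33 alternative values for the summary results, 29 stayed within 1.5 times the value reported. The number of genes past 2-fold between replicates was 0 with TMM, DESeq2 size factors, rescaled TPM, no count filter or a prior count of 5. It became 2 on deposited TPM (Tspo2 and Alox15) and 2 on TPM of protein-coding transcripts (Alox15 and Ypel4), an alternative added after the data were seen. The number with the same leading transcript in both libraries was 3 by TPM and 5 by counts. The percent of protein-coding genes at 10 TPM, 4.79, became 10.4 among those with at least 10 counts in both libraries, since fewer genes enter. The number of the 6 genes at 10 TPM ranged from 3 to 5. Leaving out either replicate gave 4 for that number and 4 to 5 genes led by a protein-coding transcript. It gave 4 genes above those set beside them and 28 of the late list. Of 143 alternative values for single genes or transcripts, 4 changed direction. Ypel4 had a log2 ratio to its family of -1.25 with protein-coding transcripts alone. The ratio of Acp5 to the genes beside it was 2.05 without Acp1. Leaving out Acp1 also raised the number of genes above those set beside them to 5. Between replicate 1 and replicate 2 the log2 ratio was -0.19 for Ypel4 on rescaled TPM (0.01 with TMM) and 0.48 for Tmcc2 on deposited TPM (-0.18 with TMM). Depth limits Alox15 most, with 96 counts in replicate 2. No paired analysis was possible because there is 1 group.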
